A study of Mus musculus with 3 samples.

Results

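The genes described here are 42 genes of the lysosome and of the transcription factors that control it, taken by symbol from a fixed list. They comprise 10 proteases, 11 glycosidases, 5 sulfatases, 6 genes of lipid handling, 6 membrane proteins, 3 MiT factors and progranulin. All 42 symbols were found in the deposited table of 46078 mouse genes, and 41 of them had a mean of at least 1 FPKM (reads per kilobase of exon, scaled to the library's total). They were measured by RNA sequencing in RAW 264.7 cells, a macrophage line from the ascites of an Abelson murine leukemia virus-induced tumor of the mouse, at passages 10 to 15. The first library came from cells labelled control, with no agent named. The HU library came from cells given 0.5 mM hydroxyurea, an inhibitor of ribonucleotide reductase that stalls DNA replication, and the third library from cells given the same dose of hydroxyurea and gold nanocages at the same time. RNA was taken after 12 hours, and all cells grew in medium with 10% serum. The sources used here do not state how much of the nanocages was added or in what vehicle, and a library of cells given nanocages without hydroxyurea was not analysed here. Each condition is 1 library of 1 cell line, so no difference below has a replicate check and no p-value is given.

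Lysosomes are acidic organelles in which proteases, glycosidases, sulfatases and lipid-cleaving enzymes break down material from phagocytosis, endocytosis and autophagy. Macrophages are rich in them because they degrade what they engulf. The MiT factors TFEB, TFE3 and MITF are related helix-loop-helix proteins that bind the CLEAR element, a form of the E-box, near many lysosomal genes. Their activity is controlled largely by phosphorylation through mTORC1 and by their place in the cell, which RNA levels do not measure. The title of the series names autophagy and cell death beside nano gold, its design text gives hydroxyurea as the means of damaging the cells, and autophagy delivers its cargo to lysosomes.

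The libraries held 14990564 counted reads in control, 20057329 in HU and 18644333 in HU with gold nanocages. Ratios below are ratios of CPM, reads scaled to the library's total, with exact 95% intervals from the read counts. These intervals cover counting error only. A gene is said to be above counting error where the whole interval exceeds 1, and below it where the whole interval is under 1. Of 9 macrophage markers found, 8 had a mean of at least 1 FPKM, Mrc1 had no reads, and their summed level was 3053, 2927 and 2799 FPKM in control, HU and HU with gold nanocages. No marker of fibroblasts, lymphocytes, granulocytes and mast cells, dendritic cells or melanocytes reached a mean of 1 FPKM. The 8 osteoclast markers summed to 73.97, 80.92 and 79.29 FPKM in the same order, mostly from Acp5, while Ctsk, a cathepsin abundant in osteoclasts, stood at 0.53 to 0.57 FPKM. The part of these marker levels in the results was not tested. In bulk RNA, fewer cells with a transcript and less of it per cell cannot be told apart.

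Many of the lysosomal genes were abundant, and proteases had the highest median level of the classes with more than 1 gene, at 158 FPKM. Lipid handling followed at 49.2 FPKM, while glycosidases (15.3) and membrane proteins (15.1), apart from Lamp1 and Cd63, were mostly lower. Together the 42 genes took 0.921% of the control reads (95% exact binomial interval 0.916 to 0.925), 0.887% of the HU reads (0.883 to 0.891) and 0.881% of the reads with nanocages (0.876 to 0.885). Their summed CPM was thus 0.964-fold in HU against control (0.957 to 0.971) and 0.993-fold with nanocages against HU (0.986 to 0.999). In all 13 genes had a mean of at least 100 FPKM and 32 of at least 10 FPKM. Ctsz, which encodes the carboxypeptidase cathepsin Z, was highest at 437.0, 441.9 and 431.1 FPKM in control, HU and HU with gold nanocages, and ranked 79 among all genes. Lamp1, the most abundant protein of the lysosomal membrane, stood at 328.4, 325.2 and 316.2 FPKM. Ctsd, the aspartic protease cathepsin D, stood at 317.0, 333.8 and 322.8 FPKM. Ctsz was clear of this pair, while Lamp1 and Ctsd changed places between libraries. The sulfatases were low throughout, at a mean of 3.87 FPKM for Arsa to 11.5 FPKM for Arsb. Ctsh, which encodes cathepsin H, had 0, 0 and 2 reads, which allows at most 0.0445 FPKM in control and 0.0332 FPKM in HU for a count of 0.

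**Figure D1:**
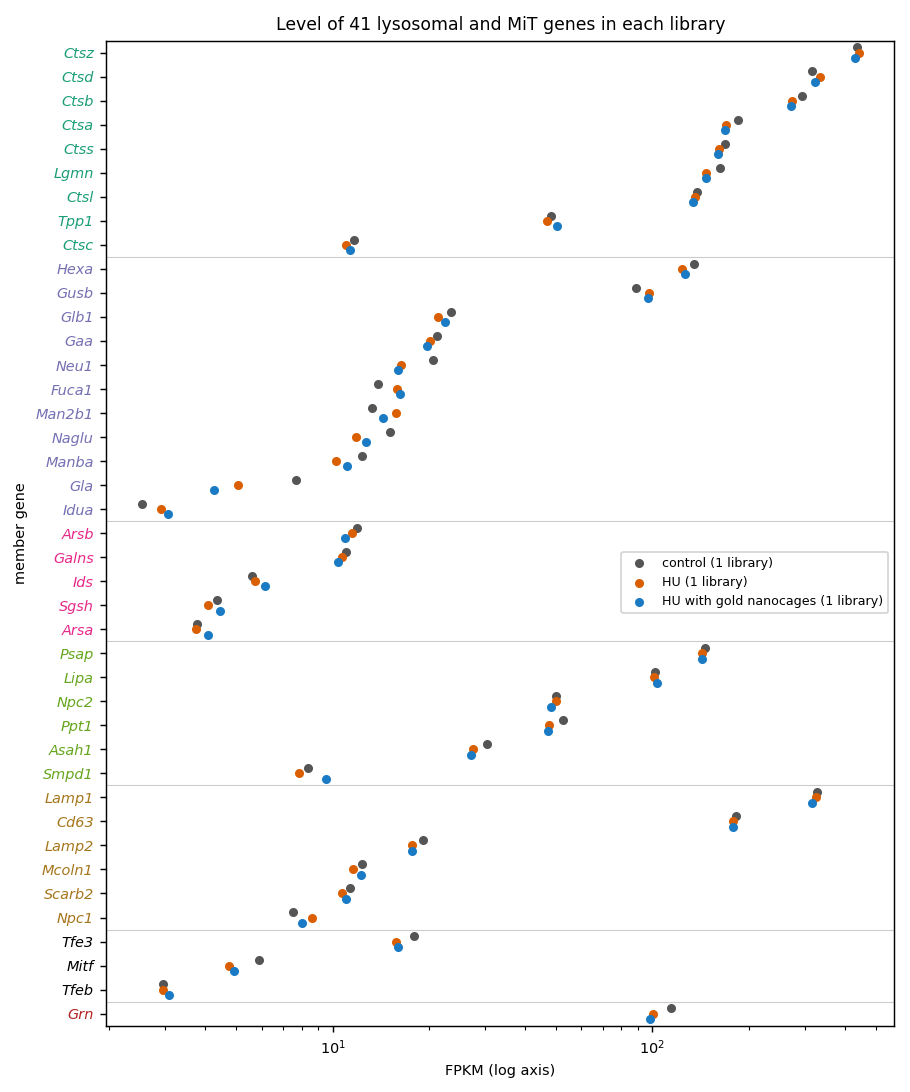
FPKM on a log axis for the 41 members with a mean of at least 1 FPKM, with 1 point per library in control, HU and HU with gold nanocages, ordered by class and mean level. Mean levels span from 2.83 FPKM for Idua to 437.0 for Ctsz, and the 3 points of a gene lie close together except for a few such as Gla, Neu1 and Smpd1.

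Hydroxyurea against control asked what 12 hours of the drug do to these genes. Of 41 measured members, 15 were below counting error in HU, 5 were above it and 21 were within it, beside 20.1% of all 10849 genes with a mean of at least 1 FPKM below and 18.7% above. A ratio below 1, whether or not beyond counting error, was found for 33 members (80.5%) and for 51.9% of those genes. The median log2 ratio of the members, computed with 1 FPKM added to each level, was -0.07, beside -0.01 over all those genes. Gla, Naglu and Neu1, all glycosidases, were at least 20% lower (a ratio of 0.8 or less), which is 3 of 41 beside 8.83% of all genes. Among genes with a mean of at least 5 FPKM the same 3 stood among 37 members (8.11%), beside 5.67% of all such genes. None was at least 25% higher, beside 10.5% of all genes and 6.71% of those with a mean of at least 5 FPKM. For 33 members the whole interval lay between 20% below and 25% above equality, so larger differences between these 2 libraries are outside their counting error. That held for 52.6% of all genes, many of which have fewer reads.

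The glycosidases held the members furthest from control on both sides. Of 11, 6 were below and 3 above counting error. Gla encodes alpha-galactosidase A, which removes galactose from globotriaosylceramide and is deficient in Fabry disease. It stood at 7.66 FPKM in control, 5.07 in HU and 4.25 in HU with gold nanocages, from 375, 332 and 259 reads. Its ratio was 0.662 in HU against control (0.569 to 0.769), the lowest of all members, and control was the highest of the 3 libraries. Naglu, the glucosaminidase of heparan sulfate breakdown, stood at 15.16, 11.87 and 12.69 FPKM, a ratio of 0.783 in HU (0.700 to 0.877). Neu1, the lysosomal sialidase, stood at 20.60, 16.35 and 16.01 FPKM, a ratio of 0.793 (0.732 to 0.861). Manba, a beta-mannosidase, was 0.830-fold of control (0.770 to 0.896), at 12.32, 10.23 and 11.11 FPKM. For these 4 genes both HU libraries lay below control.

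Hexa, a subunit of beta-hexosaminidase and the most abundant glycosidase, was at 134.8, 123.8 and 126.4 FPKM, a ratio of 0.919 in HU (0.880 to 0.959). Glb1, the beta-galactosidase, had a ratio of 0.912 (0.831 to 0.9998), whose upper bound touches 1, and shares 5.49% of its annotated exon bases with Tmppe. On the other side, Man2b1, an alpha-mannosidase, was at 13.30, 15.74 and 14.39 FPKM, a ratio of 1.18 in HU (1.09 to 1.29), the highest of the members. Fuca1, the fucosidase, was at 13.85, 15.92 and 16.21 FPKM (1.15, 1.04 to 1.27). Gusb, beta-glucuronidase, was at 88.84, 97.77 and 97.21 FPKM (1.10, 1.07 to 1.14). Gaa, the glucosidase that degrades glycogen, and Idua, the iduronidase, were within counting error at ratios of 0.950 (0.888 to 1.02) and 1.14 (0.934 to 1.41). The summed CPM of the 11 glycosidases was 0.984-fold of control (0.965 to 1.00), a sum in which Gusb and Hexa weigh most.

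Proteases were close to control, with 3 of 9 measured below and 1 above counting error and ratios from 0.905 to 1.05. Ctsb, the cysteine protease cathepsin B, was at 293.1, 273.8 and 271.6 FPKM, a ratio of 0.934 in HU (0.917 to 0.951). Ctsa, a carboxypeptidase that also shields the sialidase NEU1 and beta-galactosidase from degradation, was at 185.2, 169.7 and 169.4 FPKM (0.916, 0.895 to 0.938). Lgmn, the asparaginyl endopeptidase that processes cathepsins, was at 162.4, 147.0 and 147.2 FPKM (0.905, 0.873 to 0.937). All 3 were highest in control and nearly equal in the libraries with HU. Ctsb shares 12.8% of its annotated exon bases with Fdft1 on the other strand, which was at 15.28, 12.20 and 10.07 FPKM, and Ctsa shares 10.5% with Pltp, at 14.71, 12.86 and 13.34 FPKM. Ctsd was the protease above counting error, at a ratio of 1.05 (1.03 to 1.08), and shares 34.4% of its exon bases with the annotated gene Gm49369 on its own strand. Ctsz, Ctsl, Ctss, Ctsc and Tpp1 were within it, from 0.943 for Ctsc (0.867 to 1.02) to 1.01 for Ctsz (0.985 to 1.04).

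All 5 sulfatases, which remove sulfate from glycosaminoglycans and sulfatides, were within counting error in HU, with ratios from 0.937 for Sgsh (0.800 to 1.10) to 1.02 for Ids (0.899 to 1.16). Over all genes 20.1% were below and 18.7% above it. Arsb was at 11.96, 11.54 and 10.96 FPKM and Galns at 11.02, 10.74 and 10.37 FPKM, both highest in control by less than counting error. These genes have 208 to 923 reads a library, so a difference under about 10% was not detectable at this depth for any of them.

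Of the 6 genes of lipid handling, 2 were below counting error in HU and all 6 ratios lay below 1. Over all genes 20.1% were below counting error and 51.9% had a ratio below 1. Ppt1, a thioesterase that removes palmitate from proteins, was at 52.60, 47.46 and 47.07 FPKM (0.902, 0.859 to 0.948). It shares 3.51% of its exon bases with the abundant Cap1 on the other strand, at 278.2, 264.8 and 258.9 FPKM. Asah1, acid ceramidase, was at 30.38, 27.43 and 27.17 FPKM (0.903, 0.843 to 0.966). Both were highest in control. Psap, the precursor of the saposins that help enzymes reach membrane lipids, was at 146.0, 142.8 and 143.0 FPKM (0.978, 0.945 to 1.01). Lipa, the acid lipase that frees cholesterol from its esters, was at 101.9, 100.9 and 103.3 FPKM (0.990, 0.953 to 1.03). Npc2, a soluble cholesterol carrier, and Smpd1, acid sphingomyelinase, were within counting error too, at 0.996 (0.945 to 1.05) and 0.938 (0.804 to 1.09).

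Membrane proteins were near equal, with 1 of 6 below counting error (Lamp2) and 1 above it (Npc1), beside 20.1% and 18.7% of all genes. Lamp2, which also serves chaperone-mediated autophagy, was at 19.18, 17.70 and 17.77 FPKM (0.923, 0.877 to 0.971). Npc1, which exports cholesterol from lysosomes, was at 7.50, 8.64 and 8.01 FPKM (1.15, 1.07 to 1.24). Its exons share 4.52% of their bases with Rmc1 on the other strand, at 7.54, 7.42 and 7.46 FPKM. Reads within these shared bases cannot be told apart without a known strand setting. Lamp1 (0.990, 0.966 to 1.02) and Cd63, a tetraspanin of late endosomes (183.0, 179.3 and 178.4 FPKM, 0.980, 0.933 to 1.03), were within counting error. So were Scarb2, the receptor that carries glucocerebrosidase to lysosomes (0.948, 0.874 to 1.03), and Mcoln1, a calcium channel, at 12.32, 11.58 and 12.31 FPKM (0.940, 0.843 to 1.05).

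Among the MiT factors, Tfe3 and Mitf were lower in HU and Tfeb was within counting error. Tfe3 was the most abundant, at 18.00 FPKM in control, 15.82 in HU and 16.01 in HU with gold nanocages, a ratio of 0.879 in HU (0.833 to 0.927). Mitf was at 5.89, 4.74 and 4.91 FPKM (0.805, 0.715 to 0.905). For both genes control was highest and the libraries with HU were close to each other. Tfeb was at 2.94, 2.94 and 3.07 FPKM (0.998, 0.845 to 1.18), from 250, 334 and 324 reads, so its interval includes the ratio of Tfe3. A difference between the ratios of the 3 factors was not tested. Grn encodes progranulin, a secreted and lysosomal protein that is cut into granulins. It was at 114.8, 100.8 and 98.13 FPKM, a ratio of 0.878 in HU (0.848 to 0.909), and control was highest. In mm10, by GENCODE M21, Gla lies at chrX:134588149-134601125, Naglu at chr11:101070012-101077672 and Neu1 at chr17:34931253-34935953. Tfe3 lies at chrX:7762560-7775202, Mitf at chr6:97807052-98021349 and Tfeb at chr17:47737030-47792419. None of these 6 shares exon bases with another annotated gene.

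**Figure D2:**
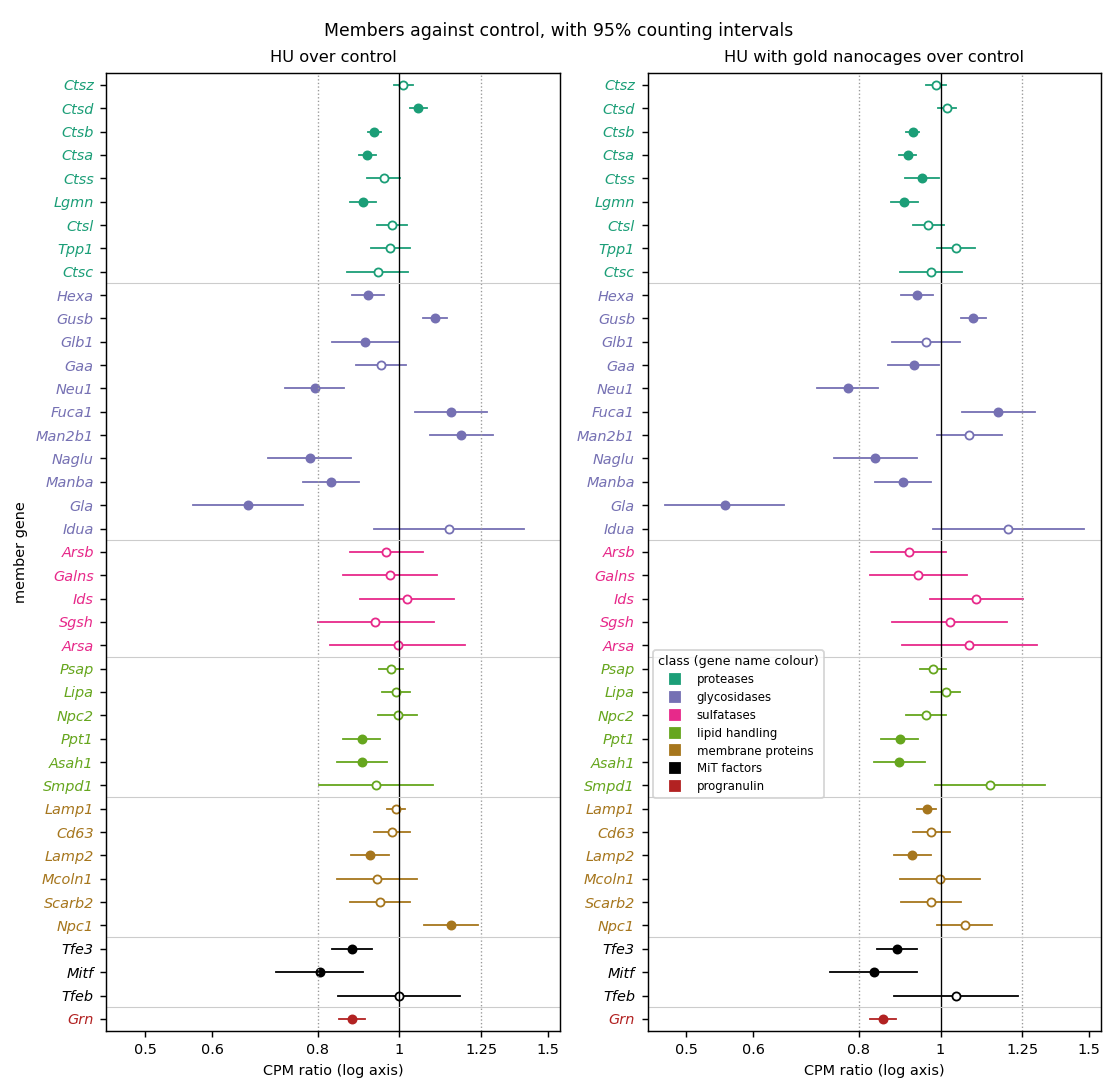
CPM ratios on a log axis for the 41 measured members in HU over control (left) and HU with gold nanocages over control (right), with lines for 95% counting intervals, filled points where the interval excludes 1, and dotted lines at 20% below and 25% above equality. On the left 33 points lie below 1, and Gla at 0.662 lies furthest out. The panels share the control library.

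Gold nanocages added to HU asked what the nanocages change when given together with the drug. Lysosomal genes were nearly the same with and without them. The median log2 ratio of the 41 members was 0.00, as over all genes. Of the 41 ratios 20 lay below 1 (48.8%), beside 48.2% of all genes. Above counting error were 3 members, beside 8.35% of all genes, and below it were 5, beside 7.78%. No member was at least 25% higher, beside 3.74% of all genes, or 20% lower, beside 3.31%. For 36 members (87.8%) the whole interval lay between 20% below and 25% above equality, against 69.3% of all genes. Many of those genes have fewer reads. Among the 37 members with a mean of at least 5 FPKM, 3 (8.11%) were above and 5 (13.5%) below counting error. The shares of all such genes were 9.6% and 9.4%. At the fold bounds, 1.19% of such genes were at least 25% higher and 0.866% at least 20% lower.

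Smpd1, which frees ceramide from sphingomyelin, was the member furthest above, at 9.57 FPKM with nanocages against 7.84 in HU and 8.36 in control. This is a ratio of 1.22 (1.06 to 1.40), from 430 against 379 reads. Manba was at a ratio of 1.09 (1.01 to 1.17), and Tpp1, a peptidase that trims proteins from their amino end, at 1.07 (1.02 to 1.12), with 48.11, 46.92 and 50.18 FPKM in control, HU and HU with gold nanocages. Smpd1 and Tpp1 were thus highest with nanocages, while Manba stayed below control. Against control, Smpd1 (1.145, 0.986 to 1.33) and Tpp1 (1.04, 0.990 to 1.10) were within counting error. Gla was furthest below, at 0.839 (0.711 to 0.990), so its level was lowest with nanocages. Man2b1 (0.914, 0.845 to 0.989) and Npc1 (0.928, 0.867 to 0.992) were below HU and still above control in level, by less than counting error. Ctsd (0.967, 0.946 to 0.988) and Lamp1 (0.973, 0.950 to 0.996) were below by under 4%. With 99% intervals only Ctsd stayed below among these 5, beside 3.58% of all genes, and Smpd1 and Tpp1 stayed above, beside 4.11%.

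The MiT factors were all within counting error with nanocages, at 1.04 for Tfeb (0.893 to 1.22), 1.01 for Tfe3 (0.961 to 1.07) and 1.04 for Mitf (0.921 to 1.16). Grn was at 0.973 (0.940 to 1.01). Mcoln1 was at 1.06 (0.960 to 1.18), Ctsb at 0.992 (0.975 to 1.01), Hexa at 1.02 (0.979 to 1.06) and Cd63 at 0.995 (0.950 to 1.04). The bounds of Ctsb leave room for a difference of at most about 3% in these libraries, and those of Tfeb for over 20% in the upward direction.

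**Figure D3:**
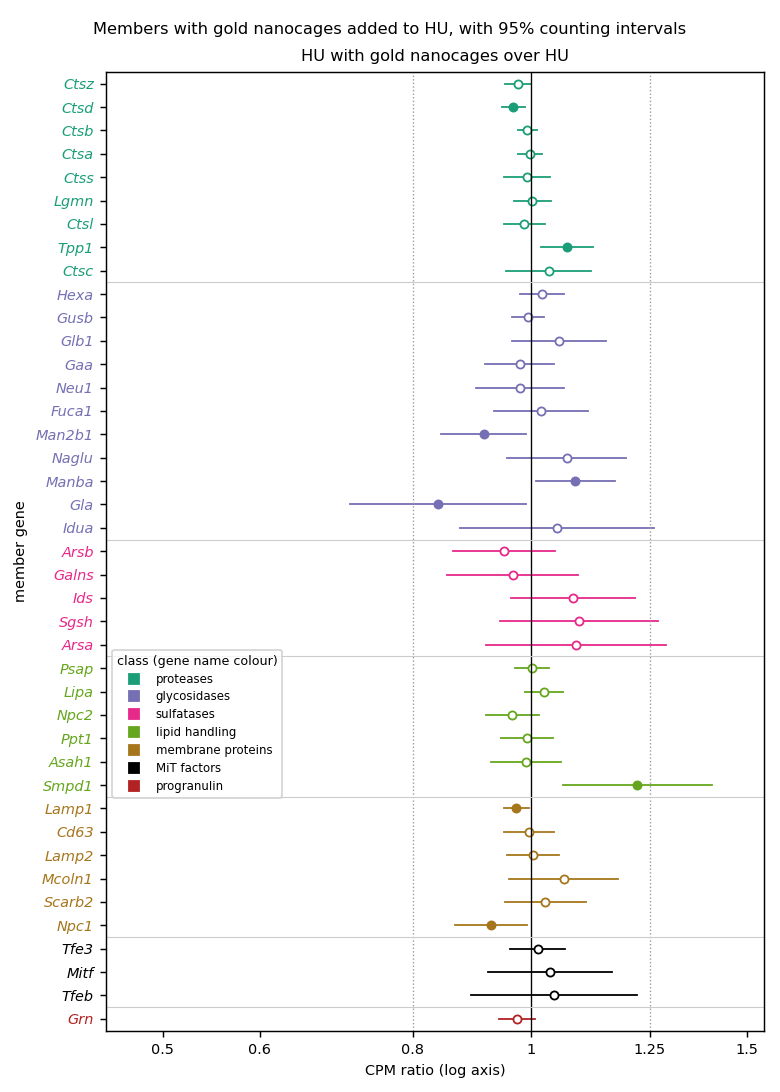
CPM ratios on a log axis of HU with gold nanocages over HU for the 41 measured members, with 95% counting intervals and filled points where the interval excludes 1. All points lie between the dotted lines at 20% below and 25% above equality, and 8 are filled, from Gla at 0.839 to Smpd1 at 1.22.

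HU with gold nanocages against control gives the level of the combined treatment against the cells labelled control, and it shares the control library with the first comparison. Here 17 members were below counting error, beside 20.1% of all genes, and 2 above, beside 19.6%. At least 20% lower were 2 members, beside 8.58%, and none was 25% higher, beside 10.9%. The median log2 ratio was -0.05, beside 0.00 over all genes. Among the 37 members with a mean of at least 5 FPKM, 17 (45.9%) were below and 2 (5.41%) above counting error. The shares of all such genes were 23.5% and 21.7%. At the fold bounds, 5.82% of such genes were at least 20% lower and 6.95% at least 25% higher. Gla stood at 0.555 (0.472 to 0.652) and Neu1 at 0.777 (0.715 to 0.844). Naglu was at 0.837 (0.748 to 0.938), Mitf at 0.833 (0.740 to 0.939), Grn at 0.855 (0.825 to 0.885) and Tfe3 at 0.889 (0.842 to 0.939). Fuca1 (1.17, 1.06 to 1.29) and Gusb (1.09, 1.06 to 1.13) were the 2 above. Of the 20 members beyond counting error in HU against control, 16 were so on the same side here, 14 below and 2 above. The 4 others were Ctsd, Man2b1 and Npc1, above in HU, and Glb1, below in HU. Both ratios of a gene are taken over the same control count, so this agreement is not independent. The share of all genes that agree in this way was not computed, so the count cannot be read as particular to these members.

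Promoters of the members were searched for the CLEAR core because the MiT factors are among the members. Promoter sequences, 250 bases before to 50 after each start site, came from RefSeq on GRCm38.p6 and were found for 37 of the 42 genes. The letters TCACGTGA, a palindrome that reads the same on both strands, were present in 4 members (10.8%), beside 2.38% of 7607 genes with a mean of at least 1 FPKM and 1.12% of all 27025. The inner E-box CACGTG, which every TCACGTGA contains, was present in 12 members (32.4%), beside 12.5% and 8.09%. The CLEAR element is described near many lysosomal genes, so higher shares in a list of such genes are no separate finding. The windows below hold 30 bases each, 5′ to 3′ on the gene's strand, with the matched letters in capitals. They show Gla and Naglu, the members with the lowest ratios in HU against control (0.662 and 0.783), beside Ctsa, Ctsd, Mcoln1 and Lamp1. Neu1, with the next lowest ratio (0.793), was searched and held no CACGTG. Mitf (0.805) and Manba (0.830) were not among the 12 with CACGTG, though 5 members had no promoter to search.
Gla, chrX:134601215-134601244: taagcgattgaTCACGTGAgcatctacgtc
Gla, chrX:134601182-134601211: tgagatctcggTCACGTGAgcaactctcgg
Naglu, chr11:101070009-101070038: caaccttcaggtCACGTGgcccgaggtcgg
Ctsa, chr2:164833749-164833778: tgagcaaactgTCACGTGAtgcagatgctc
Ctsd, chr7:142387908-142387937: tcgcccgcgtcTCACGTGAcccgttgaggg
Mcoln1, chr8:3500462-3500491: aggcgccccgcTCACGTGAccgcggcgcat
Lamp1, chr8:13159088-13159117: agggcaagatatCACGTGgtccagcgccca

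Gla holds the 8 letters at 2 places, centred 224 and 191 bases before its start site, on the minus strand of the X chromosome. Ctsa holds them at 9 bases before and again at 8 bases after its second listed start, Ctsd at 95 and Mcoln1 at 42 bases before. Mcoln1 holds a further CACGTG at 68 and Ctsd at 242 bases before. Lamp1 holds CACGTG at 4 places, centred 58 to 12 bases before its start. In HU against control the ratios of the members with CACGTG ran from 0.662 for Gla to 1.05 for Ctsd. All of them but Ctsd had a ratio below 1, as did 80.5% of all measured members and 51.9% of all genes. The median log2 ratio of the 12 was -0.08. Of these, 5 were below counting error, where 20.1% of all genes were, and 1 above it, where 18.7% were. The 4 with TCACGTGA had a median of -0.10, with 2 below and 1 above. The 25 members searched without CACGTG had a median of -0.05, with 8 below and 3 above. With nanocages against HU the medians were 0.00 with CACGTG, 0.02 without it and -0.03 with TCACGTGA. These matches describe letters in a window and are not measured binding sites.

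In 4 of 5 further lysosomal lists the median log2 ratio in HU against control was below that of all genes, -0.01, although most genes of each list were not below counting error. Over all genes 51.9% had a ratio below 1, 20.1% were below and 18.7% above counting error. Of 18 measured subunits and partners of the V-ATPase, the proton pump that acidifies lysosomes, 16 (88.9%) had a ratio below 1, 8 (44.4%) were below and none above counting error, and the median log2 ratio was -0.08. Atp6v1a, its catalytic subunit, was at 50.01, 43.65 and 43.16 FPKM (0.873, 0.839 to 0.908). Atp6v0d2, a subunit prominent in osteoclasts, was at 1.89, 1.30 and 0.87 FPKM from 77, 71 and 44 reads, with ratios of 0.689 in HU (0.492 to 0.964) and 0.667 with nanocages against HU (0.447 to 0.985). Atp6v0c was within counting error, at 0.885 (0.754 to 1.04).

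Of 26 further hydrolases and their helpers, 8 (30.8%) lay below counting error, where 20.1% of all genes did, and 2 (7.69%) above it, where 18.7% did (median -0.05). Dpp7, a dipeptidyl peptidase, was at 14.09, 9.82 and 10.38 FPKM (0.696, 0.625 to 0.776) and Hyal2, a hyaluronidase, at 7.25, 9.07 and 9.24 FPKM (1.251, 1.10 to 1.43). Hyal1 rested on 61, 98 and 107 reads and was within counting error in HU (1.20, 0.863 to 1.68). Of 28 further membrane proteins and transporters, 10 (35.7%) were below and 3 (10.7%) above (median -0.06). Slc38a9, the arginine sensor of the lysosome, was at 2.64, 1.82 and 2.13 FPKM (0.688, 0.590 to 0.802), and Tmem55b at 13.75, 10.17 and 9.43 FPKM (0.740, 0.675 to 0.812). Slc29a3, a lysosomal nucleoside transporter, was at 1.97, 2.92 and 3.13 FPKM (1.49, 1.23 to 1.79), a larger ratio than that of any member. Of 21 genes that sort proteins to lysosomes, 9 (42.9%) were below and 3 (14.3%) above (median -0.08). Igf2r, the large mannose 6-phosphate receptor, was at 34.75, 39.18 and 37.01 FPKM (1.13, 1.09 to 1.17). Vps39, a subunit of the HOPS tether, was at 11.69, 9.56 and 10.01 FPKM (0.818, 0.762 to 0.877), and Gga3, an adaptor, at 0.874 (0.809 to 0.944). Vps26a of the retromer was at 35.02, 32.73 and 36.71 FPKM. It was below control in HU (0.935, 0.877 to 0.997), above HU with nanocages (1.12, 1.06 to 1.19) and within counting error of control with nanocages (1.05, 0.984 to 1.12).

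Of 17 measured genes that control the MiT factors, 8 (47.1%) had a ratio below 1 in HU, 3 (17.6%) were above and 2 (11.8%) below counting error, and the median log2 ratio was 0.02. Ppp3cb, a catalytic subunit of the phosphatase calcineurin that acts on TFEB, was at 25.36, 22.37 and 22.06 FPKM (0.882, 0.834 to 0.933). Map4k3, a kinase that acts on TFEB, was at 4.57, 5.47 and 5.77 FPKM (1.20, 1.03 to 1.39). Rragb, a Rag GTPase, was at 4.85, 5.59 and 6.41 FPKM and within counting error in HU (1.15, 0.944 to 1.41). With nanocages against HU the medians of the 5 further lists ran from -0.02 for hydrolases and their helpers to 0.01 for membrane proteins and transporters, and at most 4 genes of a list were on either side of counting error.

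**Figure D4:**
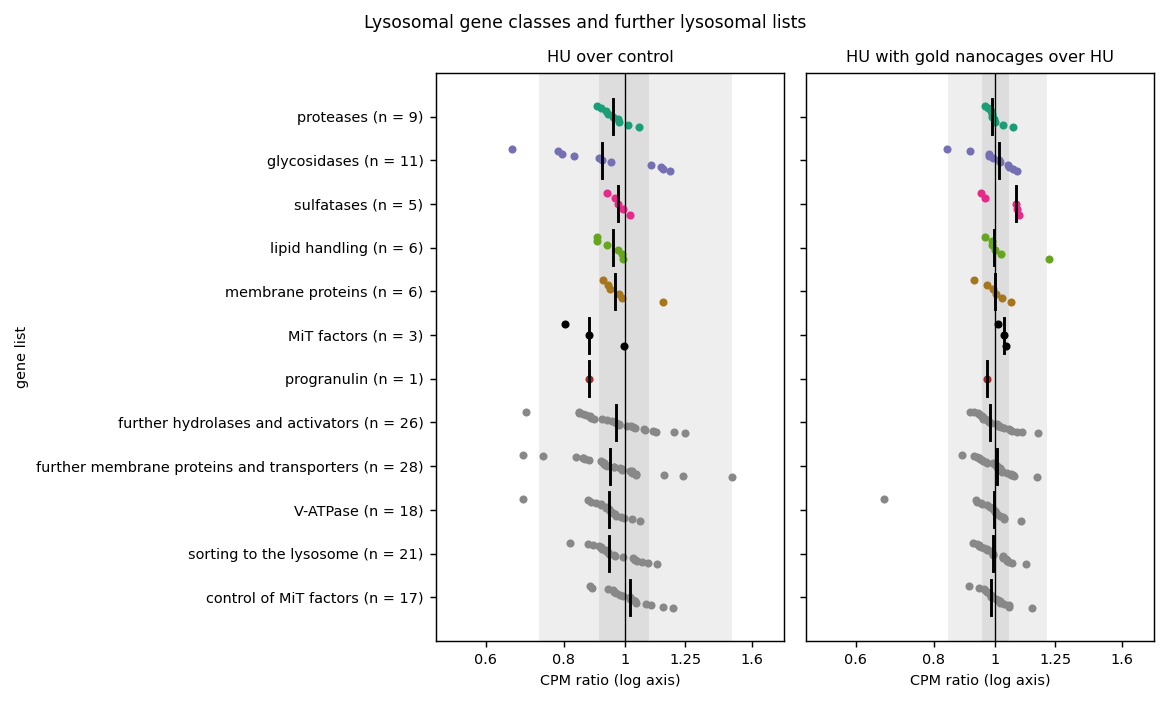
CPM ratios on a log axis of HU over control (left) and HU with gold nanocages over HU (right) for each gene (points) of the 7 classes of members and of 5 further lysosomal lists, with black ticks at list medians and grey bands for the middle 50% and 90% of all measured genes. On the left the medians lie below 1 for all lists except control of MiT factors, and on the right most lie near 1 with the sulfatases highest.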

How the data were processed

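The authors deposited 1 table of raw counts, whole reads per gene for each library, with no normalization. FPKM values stand beside it, per the file headers, and could be recomputed for 100% of genes from count, gene size and column sum within rounding. The size column is a length in bases, per the file headers, an other kind of value. The submitters' processing notes name HISAT2 2.0.1, HTSeq 0.6.1, cutadapt, bcl2fastq 2.17.1.14, DESeq, SAMtools 0.1.18 and the build mm10. No source used here gives their roles, the annotation release, the strand setting or the handling of reads that near-identical genes share. In GENCODE M21, 13 of the 42 members share exon bases with a gene on the opposite strand.

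CPM ratios with exact (Clopper-Pearson, conditional on the summed count) 95% intervals were computed with SciPy 1.17.1 in Python 3.11.15 over all genes with a mean of at least 1 FPKM, and the intervals were tested on simulated data. With 1 library per group no model was fitted. PCR reads without molecular identifiers are not independent molecules, so intervals and the limit of 3 counts for a gene without reads cover counting error only. One read stood for 0.0667, 0.0499 and 0.0536 CPM in control, HU and HU with gold nanocages. Alternatives were the size factors of DESeq2 1.42.0, the TMM factors of edgeR 4.0.16, other pseudocounts (0.1 and 5 FPKM), other level minimums (above 0 and 5 FPKM), 99% intervals and a 1.5-fold bound. The members and lists were chosen with earlier results of these data known. Values are given for members at least 25% higher or 20% lower, for the 2 highest of each class and for Tfeb, Tfe3, Mitf, Lamp1, Mcoln1 and Grn. Of each further list, the rule took the 3 genes furthest apart in HU and the 1 furthest with nanocages. Other members and Acp5, Ctsk, Mrc1, Rmc1, Tmppe, Fdft1, Pltp, Cap1 and Gm49369 were named after their values were seen.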

Additional observations from a re-analysis of the deposited data

How the results depend on the processing

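No paired analysis was possible because each condition is 1 library. The median log2 ratio of the members in HU against control was -0.07 as reported and between -0.07 and -0.05 under the other pseudocounts, scalings and level minimums, and that of HU with gold nanocages against HU stayed between -0.01 and 0.00, and that against control between -0.06 and -0.05. TMM and median-of-ratios factors shifted every log2 ratio by at most 0.01. Of 123 member ratios, 122 kept their side of counting error with median-of-ratios factors and 121 with TMM factors. Ctsz went below with nanocages against HU (0.972 and 0.973), and Glb1 came within it in HU against control (0.914 with TMM). With 99% intervals 1 member, Ctsd, was below in HU with gold nanocages against HU, in place of 5, beside 3.58% of all genes. In HU against control 14 stayed below, in place of 15, beside 14.6% of all genes. With a bound of 1.5-fold, 1 member was lower in HU against control and 1 in HU with gold nanocages against control, Gla in each. By that bound 3.12% and 3.24% of all genes were lower. With all members of a mean above 0 FPKM, 1 member, Ctsh, was 25% higher, on 2 reads against 0. It was so in HU with gold nanocages against HU and against control, beside 17.9% and 25.2% of all genes above 0 FPKM. Depth limits the genes of few reads most: in HU against control the interval of Idua, the measured member with the lowest mean FPKM, ran from 0.934 to 1.41, and that of Ctsb from 0.917 to 0.951.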
